A study of Arabidopsis thaliana with 9 samples.

Results

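The plastid genome of Arabidopsis was represented in these data by 69 probe sets that each name 1 plastid gene, out of 22810 probe sets on the array, and every gene was covered by 1 probe set. A further 8 probe sets named both copies of genes that lie in the repeated part of the plastid genome, and these are described separately. With them, 76 distinct protein-coding genes of the plastid genome were covered. All 69 members code for proteins. They comprised 7 genes for photosystem I and its assembly, 15 for photosystem II, 6 for the cytochrome b6f complex, 6 for ATP synthase, 10 for the NDH complex, rbcL, 4 for the plastid RNA polymerase, 8 and 7 for the small and large subunits of the plastid ribosome, and 5 others.

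The roots came from 5 d old seedlings of the wild-type ecotype Wassilewskija that had spent 24 h in 1 of 3 atmospheres. The first was 50 kPa total pressure, in which oxygen was reduced along with the pressure. The second was 50 kPa/NormOx, the same total pressure with oxygen restored to a partial pressure of 21 kPa, and the last was ambient pressure, 97 kPa. Carbon dioxide was held at 0.05 kPa in all of them. Each group had 3 arrays, each made from the pooled roots of seedlings of 1 chamber, so the p-values given below measure the spread between such pools. The shoots were cut away by hand, and plants were kept in the light, so the roots were lit.

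Plastids keep a small genome that codes for part of the photosynthetic apparatus and for part of the machinery that transcribes and translates it, while the nucleus supplies the remaining subunits and the factors that process plastid RNA. A multi-subunit polymerase encoded in the plastid and a phage-type polymerase encoded in the nucleus share its transcription, and most plastid genes are transcribed together with their neighbours and then cut into shorter RNAs. Root plastids are mostly non-green, but roots kept in the light can form some chloroplasts. Plastid mRNAs mostly lack stable poly(A) tails, and in plastids a poly(A) tail marks an RNA for decay. The labelling reaction used here starts from poly(A), so the signals describe the RNA that this reaction caught and not necessarily the whole plastid RNA pool.

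The values were linear signal intensities scaled by the authors to the same trimmed mean on every array. The 69 members together held 1.71, 2.03 and 2.23% of the summed signal on the 50 kPa arrays, 1.54, 1.59 and 1.38% on the 50 kPa/NormOx arrays, and 1.80, 1.99 and 1.81% on the 97 kPa arrays. The 50 kPa/NormOx share was below that of every array of the other groups. The 50 kPa and 97 kPa shares overlapped. In bulk tissue, fewer plastids or green cells and less RNA per plastid cannot be told apart.

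Across the 15923 probe sets that passed the filter on low signal, 50 kPa/NormOx replicate 2 stood apart from its own group. Its log2 signals correlated at 0.960, 0.957 and 0.954 with the 50 kPa arrays, against 0.944 and 0.946 with the other 50 kPa/NormOx arrays, each across probe sets, which are not independent replicates. Some counts and medians that rest on this array are therefore also given without it, an alternative chosen after seeing the data. Others, such as the counts at an unadjusted p, are not. Differences are log2 differences of group means, and a call means an adjusted p under 0.05 in limma over the 15923 probe sets that passed the filter on low signal. Of the members, 65 passed that filter. The 4 that did not were atpI, rpoB, rps14 and ndhF, whose mean log2 signal lay under the floor and which carry no test.

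At 50 kPa against 50 kPa/NormOx, where the pressure was equal and oxygen differed, 64 of the 69 members had a difference above 0, where 48% of all tested probe sets lay above 0 and 52% below. The median member difference was 0.61, a fold of 1.53, while the median over all tested probe sets was -0.01. The lower and upper quartiles of the member differences were 0.39 and 0.81. In limma 4 genes rose: ndhJ and ndhE of the NDH complex, psbH of photosystem II and rpl16 of the ribosome. That is 4 of 65, against 0.113% of all tested probe sets called higher. None was called lower, against 0.00628% of all tested probe sets.

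The NDH complex is an NAD(P)H dehydrogenase-like complex of the thylakoid membrane that feeds electrons into cyclic electron flow around photosystem I. Its subunit gene ndhJ had signals of 1416, 1562 and 1646 at 50 kPa, 676, 963 and 670 at 50 kPa/NormOx, and 1053, 1283 and 1309 at 97 kPa. The 3 groups did not overlap in any pairing, with 50 kPa the highest and 50 kPa/NormOx the lowest. The difference of 50 kPa from 50 kPa/NormOx was 1.02 ± 0.16 (SE, n = 3 arrays each; limma, adjusted p = 0.020), a fold of 2.03.

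The second NDH gene called, ndhE, codes for a membrane subunit of the complex. It had signals of 378, 444 and 626 at 50 kPa, 141, 199 and 174 at 50 kPa/NormOx, and 359, 489 and 286 at 97 kPa. Every 50 kPa/NormOx array was below every other array, and the 50 kPa and 97 kPa arrays overlapped. Its difference of 1.48 ± 0.24 between 50 kPa and 50 kPa/NormOx was a fold of 2.78 (SE; limma, adjusted p = 0.0215).

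The photosystem II gene psbH codes for a small phosphoprotein of the core. It had signals of 765, 795 and 941 at 50 kPa, 303, 462 and 361 at 50 kPa/NormOx, and 601, 820 and 591 at 97 kPa. Again the 50 kPa/NormOx arrays lay below all others, and the other groups overlapped. Its difference between 50 kPa and 50 kPa/NormOx was 1.17 ± 0.19 (SE; limma, adjusted p = 0.0215), a fold of 2.24.

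The gene rpl16 codes for a protein of the large ribosomal subunit. Its signals were 4064, 5034 and 5213 at 50 kPa, 2496, 3045 and 2333 at 50 kPa/NormOx, and 4395, 4431 and 3712 at 97 kPa. The same pattern held, with no overlap between the 50 kPa/NormOx arrays and the rest. The difference between 50 kPa and 50 kPa/NormOx was 0.86 ± 0.14 (SE; limma, adjusted p = 0.020), a fold of 1.82.

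**Figure D1:**
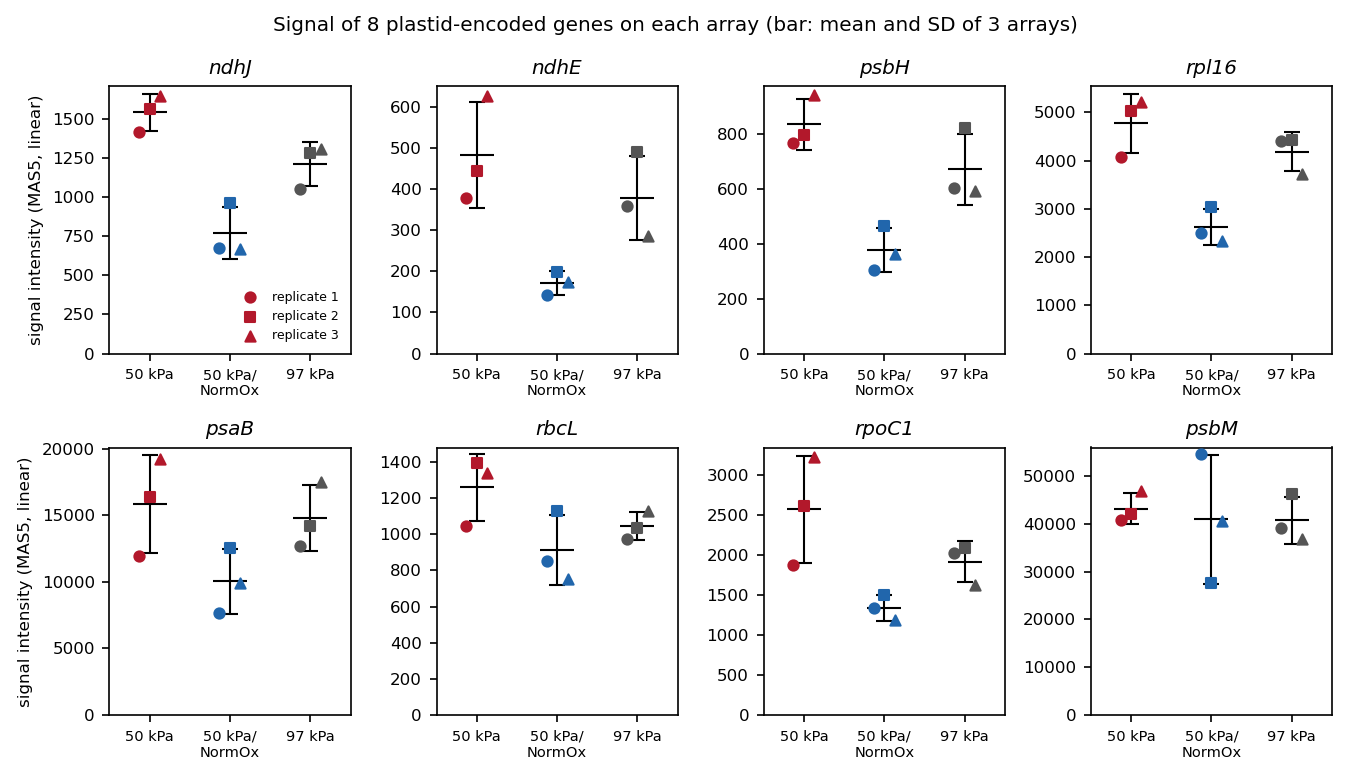
Signal intensity on the linear scale (vertical axis, from 0) of 8 plastid-encoded genes on each of the 9 arrays, in the groups 50 kPa, 50 kPa/NormOx and 97 kPa, with symbols for the replicates and bars for the mean and SD of 3 arrays. The upper row holds the 4 genes that passed at 50 kPa against 50 kPa/NormOx, and in each of them the 3 arrays of 50 kPa/NormOx lie below the 6 others. The lower row holds psaB, rbcL, rpoC1 and psbM, and the groups of psbM overlap throughout.

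These 4 calls depended on single arrays. No member was called when 50 kPa replicate 2, 50 kPa replicate 3, 50 kPa/NormOx replicate 1 or 50 kPa/NormOx replicate 3 was left out. Without 50 kPa/NormOx replicate 2 there were 13 calls, namely psaC, ndhE, ndhD, psbH, rpl16, rps2, rpoC1, psbC, psbZ, ndhJ, ycf4, cemA and atpF, and without 50 kPa replicate 1 there were 10. The shares of all tested probe sets called with these arrays left out are not given here. The members as a whole kept their direction with each array left out: 63 or 64 members stayed above 0 and the median stayed between 0.44 and 0.71. At an unadjusted p under 0.05, 53 of the 65 tested members were higher and 0 lower, against 4.73% and 4.62% of all tested probe sets.

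The non-overlap of arrays gave a like count. In 38 of the 69 members all 3 arrays at 50 kPa were above all 3 at 50 kPa/NormOx, against 5.06% of tested probe sets, and in 1 member, rps14, they were below, against 7.65%. Without 50 kPa/NormOx replicate 2, these counts were 49 and 2. Leaving out an array makes it easier for groups not to overlap, and the shares of tested probe sets without it are not given here. Taken array by array against the 50 kPa/NormOx mean, 60, 62 and 65 of the 69 members were higher on the 50 kPa arrays, so no single array at 50 kPa carried the difference.

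By function, the medians of this comparison lay between 0.35 and 0.77. The RNA polymerase genes had a median difference of 0.77 (4 genes), the NDH genes 0.75 (10), photosystem I 0.69 (7), photosystem II 0.63 (15), ATP synthase 0.63 (6), the large ribosomal subunit 0.58 (7), cytochrome b6f 0.54 (6), the small ribosomal subunit 0.37 (8) and the other genes 0.35 (5). The single gene of Rubisco, rbcL, had 0.47. The order of these medians was not tested, and the ranges of all functions with several genes overlapped. The photosynthesis genes without NDH had a median of 0.63 over 35 genes, and the polymerase and ribosome genes together 0.58 over 19.

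**Figure D2:**
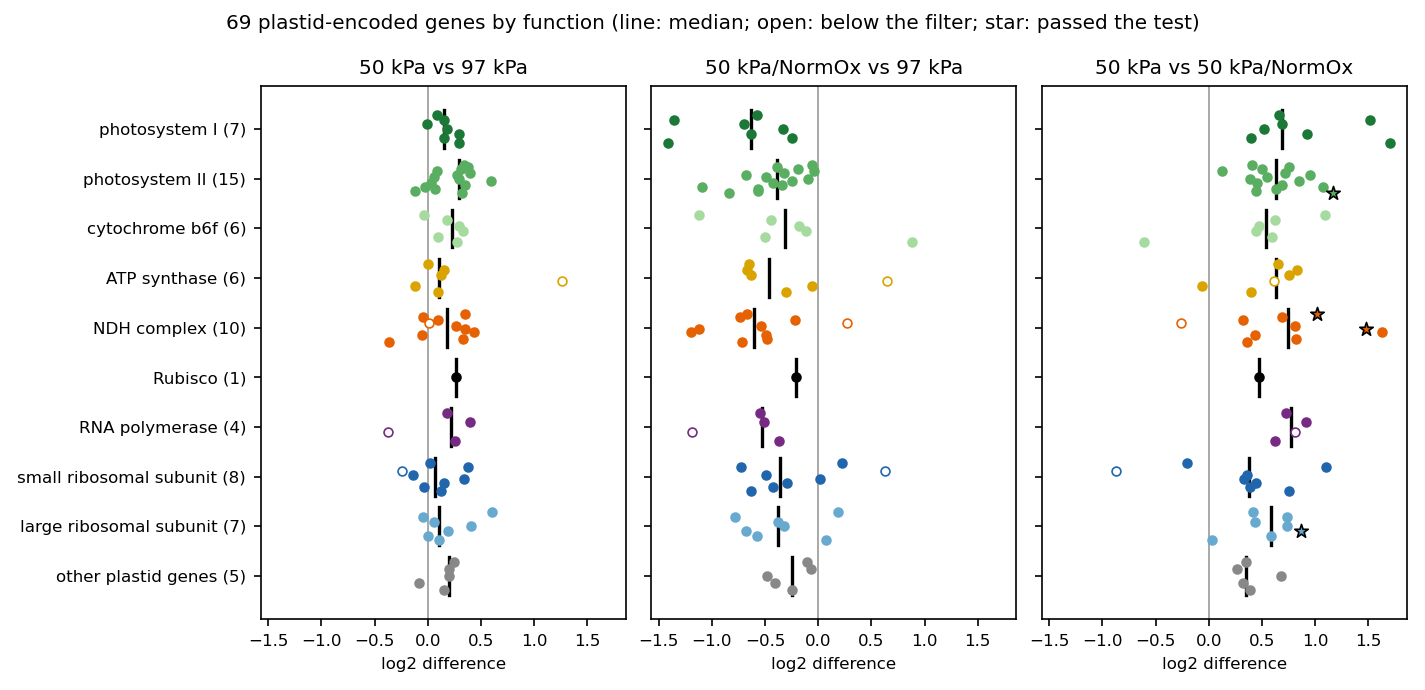
Log2 differences (horizontal axis) of the 69 plastid-encoded genes, grouped by function (vertical axis, number of genes in brackets), in 3 panels. The left panel sets 50 kPa and the middle panel 50 kPa/NormOx against 97 kPa, and the right panel compares both low-pressure groups as 50 kPa against 50 kPa/NormOx. Each point is a gene, open points are the 4 genes below the filter, stars are the 4 genes that passed and lines are medians. In the right panel every median lies above 0, from 0.35 to 0.77, and in the middle panel every median lies below 0.

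Among the photosystem I genes, psaA and psaB code for the large core proteins that bind the reaction centre chlorophylls. The psaB signals were 11925, 16375 and 19199 at 50 kPa, 7672, 12530 and 9924 at 50 kPa/NormOx, and 12718, 14171 and 17506 at 97 kPa. The 50 kPa/NormOx arrays were below those at 97 kPa, while replicate 2 of 50 kPa/NormOx exceeded replicate 1 of 50 kPa. The difference between 50 kPa and 50 kPa/NormOx was 0.66 ± 0.19 (SE; limma, adjusted p = 0.294). The gene psaA, with signals from 20.3 to 143, on both sides of the filter floor of 66.7, had 1.51 ± 0.60 (adjusted p = 0.458).

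The largest difference of any member was that of psaC, which codes for the iron-sulfur protein of photosystem I. It had signals of 224, 192 and 423 at 50 kPa, 32.8, 141 and 113 at 50 kPa/NormOx, and 162, 239 and 256 at 97 kPa. The 50 kPa/NormOx arrays lay below all others, but replicate 1 lay well below its own group. The difference between 50 kPa and 50 kPa/NormOx was 1.71 ± 0.46, a fold of 3.27, and did not pass over all probe sets (SE; limma, adjusted p = 0.256). The assembly factor gene ycf4 had the smallest p of this function, with signals of 740, 899 and 1200 at 50 kPa, 502, 473 and 489 at 50 kPa/NormOx, and 746, 816 and 705 at 97 kPa, and a difference of 0.93 ± 0.17 (adjusted p = 0.0593).

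All 15 photosystem II genes had differences above 0 at 50 kPa against 50 kPa/NormOx, from 0.13 in psbM to 1.17 in psbH, and in 9 of them the arrays did not overlap. The gene of the D1 reaction centre protein, psbA, had signals of 6084, 8298 and 9083 at 50 kPa, 5073, 7728 and 5041 at 50 kPa/NormOx, and 5179, 6348 and 6798 at 97 kPa. The groups overlapped in every pairing, and its difference of 0.40 ± 0.18 did not pass (SE; limma, adjusted p = 0.508). The gene of the inner antenna protein CP47, psbB, had a difference of 1.08 ± 0.37 (adjusted p = 0.403).

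In the cytochrome b6f complex, which links the photosystems, 5 of 6 genes were above 0. The small subunit gene petN had signals of 182, 210 and 230 at 50 kPa, 102, 118 and 75.2 at 50 kPa/NormOx, and 228, 193 and 212 at 97 kPa. Its 50 kPa/NormOx arrays lay below all others, and its difference was 1.09 ± 0.26 between 50 kPa and 50 kPa/NormOx (SE; limma, adjusted p = 0.220). The exception was petD, the gene of subunit IV, with signals from 31.5 to 146, on both sides of the filter floor of 66.7, and a difference of -0.61 ± 0.50 (adjusted p = 0.750).

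In ATP synthase, the difference was 0.83 ± 0.18 for atpF (adjusted p = 0.125), which codes for a stalk subunit, and 0.65 ± 0.16 for atpA (SE; limma, adjusted p = 0.226), which codes for the alpha subunit. The epsilon subunit gene atpE had 37902, 36266 and 44542 at 50 kPa, 41864, 46456 and 36042 at 50 kPa/NormOx, and 38737, 41626 and 48737 at 97 kPa. All its groups overlapped, with a difference of -0.07 ± 0.12 between 50 kPa and 50 kPa/NormOx. The beta subunit gene atpB next to it had 0.40.

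For carbon fixation, rbcL codes for the large subunit of Rubisco, the enzyme that fixes carbon dioxide. It had signals of 1047, 1391 and 1336 at 50 kPa, 854, 1126 and 755 at 50 kPa/NormOx, and 971, 1033 and 1126 at 97 kPa. The groups overlapped in every pairing, since replicate 2 of 50 kPa/NormOx reached the upper 97 kPa value. The difference between 50 kPa and 50 kPa/NormOx was 0.47 ± 0.17 (SE; limma, adjusted p = 0.413). Among the other genes, accD, which codes for a subunit of the acetyl-CoA carboxylase of fatty acid synthesis, had 0.27 ± 0.15 (adjusted p = 0.621), and cemA, a gene of the plastid envelope, had 0.68 ± 0.17 (adjusted p = 0.226).

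The genes of plastid gene expression had mostly the same sign as those of photosynthesis. The polymerase gene rpoC1 had signals of 1882, 2610 and 3221 at 50 kPa, 1336, 1501 and 1183 at 50 kPa/NormOx, and 2027, 2093 and 1621 at 97 kPa. Its 50 kPa/NormOx arrays lay below all others, and the difference of 0.91 ± 0.18 between 50 kPa and 50 kPa/NormOx had an adjusted p of 0.0770 (SE; limma). The genes rpoC2 and rpoA, of the same enzyme, had 0.73 and 0.62, and rpoB, below the filter, had signals of 54.6, 51.7 and 67.8 at 50 kPa, 55.7, 15.2 and 41.7 at 50 kPa/NormOx, and 84.4, 60.7 and 81.7 at 97 kPa.

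In the ribosome, 13 of 15 genes were above 0 at 50 kPa against 50 kPa/NormOx, and rps2 had the smallest p among those of the small subunit. The small subunit gene rps2 had signals of 1005, 1394 and 1642 at 50 kPa, 681, 666 and 509 at 50 kPa/NormOx, and 947, 1410 and 784 at 97 kPa. Its difference between 50 kPa and 50 kPa/NormOx was 1.11 ± 0.22 (SE; limma, adjusted p = 0.0806), and that of rpl14, next to rpl16 in the gene order, was 0.73 ± 0.14 (adjusted p = 0.0586). The exceptions were rps16, with -0.20 ± 0.19 (adjusted p = 0.793), and rps14, below the filter, with signals of 34.1, 60.5 and 65.2 at 50 kPa, 69.2, 96.3 and 123 at 50 kPa/NormOx, and 44.2, 62.5 and 80.4 at 97 kPa.

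At 50 kPa/NormOx against 97 kPa, where total pressure differed and oxygen was held at the ambient partial pressure, 61 of the 69 members had a difference below 0, where 46.7% of all tested probe sets lay above 0 and 53.3% below. The median was -0.45, a fold of 0.735, against -0.02 over all tested probe sets. The limma fit called no member, against 0.182% of all tested probe sets in the upward and 0.214% in the downward direction. At an unadjusted p under 0.05, 0 of the 65 tested members were higher and 38 lower, against 5.44% and 7.38% of all tested probe sets. These 38 include psaA, whose signals lay on both sides of the filter floor. This comparison shares the 50 kPa/NormOx arrays with the one above, so the opposite signs are not separate evidence.

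The members nearest to a call were rpl16 with a difference of -0.68 ± 0.14 (SE; limma, adjusted p = 0.0509), ndhE with -1.12 ± 0.24 (adjusted p = 0.0617), psbH with -0.84 ± 0.19 (adjusted p = 0.0701), petN with -1.12 ± 0.26 (adjusted p = 0.0756), ndhK with -0.73 ± 0.18 (adjusted p = 0.0828), ndhJ with -0.67 ± 0.16 (adjusted p = 0.0865) and atpA with -0.65 ± 0.16 (adjusted p = 0.0920). Without 50 kPa/NormOx replicate 2, 6 members were called lower (ndhE, psbH, rpl16, ndhJ, ndhK and atpF), and without 50 kPa replicate 1, which enters through the shared spread, 2 were (rpl16 and rps4). The shares of all tested probe sets called in these settings are not given here. Arrays of the groups did not overlap in 29 members that were lower at 50 kPa/NormOx, against 10.4% of tested probe sets, and in 1 that was higher, rps16, against 8.15%. Without 50 kPa/NormOx replicate 2 the counts were 44 and 2, again with no share of tested probe sets for that setting.

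By function the medians at 50 kPa/NormOx against 97 kPa were -0.63 for photosystem I, -0.61 for NDH, -0.53 for the polymerase, -0.47 for ATP synthase, -0.38 for photosystem II, -0.38 for the large and -0.36 for the small ribosomal subunit, -0.31 for cytochrome b6f, -0.24 for the other genes and -0.21 for rbcL. Without 50 kPa/NormOx replicate 2 these medians ran from -0.75 in photosystem I to -0.31 in the other genes. The lowest members were psaC with -1.41, psaA with -1.36 and ndhG with -1.19, and all of them were dim probe sets. The highest were petD with 0.88 ± 0.50 (SE; limma, adjusted p = 0.492), atpI with 0.65 and rps14 with 0.63, dim probe sets as well. Members were lower than the 97 kPa mean in 59, 52 and 61 of 69 cases on 50 kPa/NormOx replicates 1, 2 and 3.

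At 50 kPa against 97 kPa, where pressure and oxygen both differed, the member differences were smallest. Their median difference was 0.16, a fold of 1.12, against -0.04 over all tested probe sets, and 54 of 69 were above 0, where 43.4% of all tested probe sets lay above 0 and 56.6% below. The limma fit called no member in any setting tried, against 0.0816% of all tested probe sets in the upward and 0.0126% in the downward direction. At an unadjusted p under 0.05, 5 of 65 tested members were higher and 0 lower, against 4.25% and 5.09% of all tested probe sets.

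These 5 were psbL, rpl33, rpl14, rpoC1 and rps18. The arrays at 50 kPa lay above those at 97 kPa without overlap in 4 members, ndhJ, cemA, rpl33 and rpl14, against 6.19% of tested probe sets, and below them in 0, against 9.73%. Leaving out an array makes it easier for groups not to overlap: without 50 kPa replicate 1 the count was 27 in place of 4, and leaving out one of the 97 kPa arrays gave 17 for replicate 2 and 7 for replicate 3. No share of tested probe sets is given for the counts with an array left out. The ribosomal gene rpl33 had signals of 4936, 3159 and 5117 at 50 kPa, 4287, 3403 and 2289 at 50 kPa/NormOx, and 2877, 2679 and 2930 at 97 kPa. All 50 kPa arrays lay above the 97 kPa arrays, and the difference was 0.61 ± 0.21 (SE; limma, adjusted p = 0.386). For psbL, a small photosystem II subunit, the difference was 0.60 ± 0.21 (adjusted p = 0.408), with signals of 924, 1212 and 1882 at 50 kPa, 648, 810 and 689 at 50 kPa/NormOx, and 795, 809 and 946 at 97 kPa.

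The arrays of 50 kPa differed among themselves more than the median difference from 97 kPa. Against the 97 kPa mean, 24, 50 and 64 of the 69 members were higher on 50 kPa replicates 1, 2 and 3, with medians of -0.07, 0.23 and 0.35. Leaving out replicate 1 raised the overall median to 0.30, leaving out replicate 3 lowered it to 0.04, and leaving out 97 kPa replicate 2 gave 0.24. Among the untested genes, atpI had a difference of 1.26 and rpoB one of -0.38. A sign of RNA quality is the signal at the 3′ end of a gene over that at the 5′ end. For GAPDH this ratio was 5.11, 4.40 and 5.04 on the 50 kPa arrays. All were below the 6.39, 5.39 and 5.39 of the 97 kPa arrays. For actin and ubiquitin the same ratio overlapped between these groups. The part of these ratios in the differences was not tested.

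Set side by side, the mean signals put 50 kPa highest, 97 kPa next and 50 kPa/NormOx lowest in 48 of the 69 members. In 59 members 50 kPa/NormOx had the lowest mean and in 53 members 50 kPa had the highest. These counts describe the same 9 arrays as the comparisons above.

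Genes that lie next to each other in the plastid genome were also compared, with the order taken from the TAIR10.1 gene table. At 50 kPa against 50 kPa/NormOx the run of petL, petG, psaJ, rpl33 and rps18 stayed within 0.33 to 0.47, the run of rpoB, rpoC1 and rpoC2 within 0.73 to 0.91, and the run of rps2, atpI, atpH, atpF and atpA within 0.61 to 1.11. In the run from ndhD through psaC, ndhE, ndhG, ndhI and ndhA to ndhH the differences spread from 0.36 in ndhH to 1.71 in psaC, and the run that holds psbB, psbT, psbN, psbH, petB and petD spread from -0.61 to 1.17. In that run psbN is read from the other strand. Over all 68 neighbouring pairs of members the median gap between their differences was 0.36, against 0.34 over all 2346 pairs, so neighbours were about as far apart as members in general in this comparison.

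The median gap at 50 kPa/NormOx against 97 kPa was 0.27 between neighbours and 0.37 over all pairs. The run of petL to rps18 was near 0 here, from -0.24 to 0.19, while the run of ndhD to ndhH lay between -1.41 and -0.49. The run of accD, psaI, ycf4, cemA and petA lay between -0.63 and -0.07. The genes from ndhJ to ndhC gave -0.67, -0.73 and -0.22 for ndhJ, ndhK and ndhC.

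**Figure D3:**
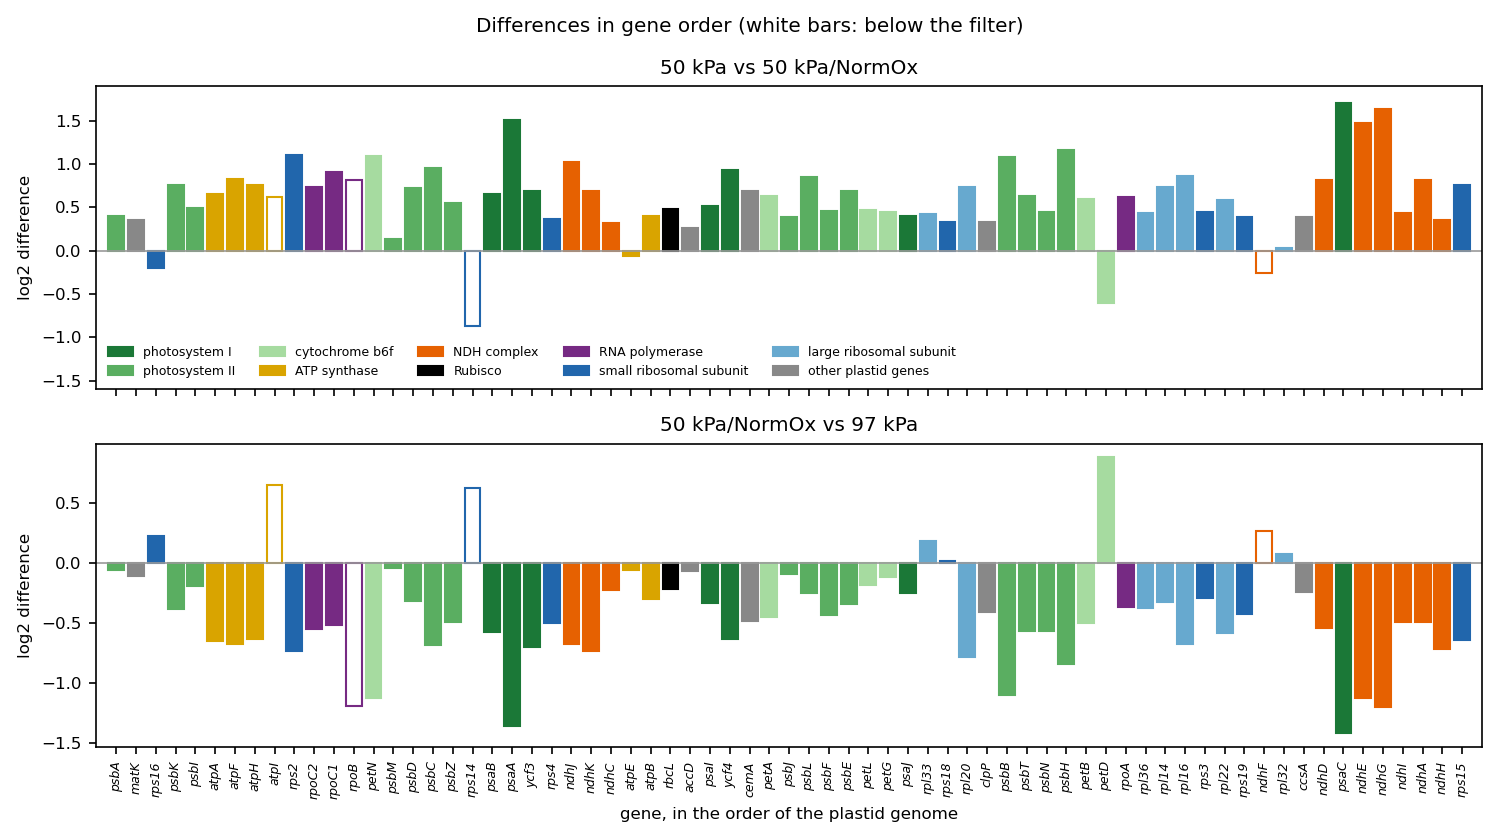
Log2 differences (vertical axes) of the 69 plastid-encoded genes in their order along the plastid genome (horizontal axis), coloured by function, for 50 kPa against 50 kPa/NormOx (upper panel) and 50 kPa/NormOx against 97 kPa (lower panel); white bars are the 4 genes below the filter. Bars above 0 in the upper panel number 64 and bars below 0 in the lower panel 61, and the tallest stand in the run from ndhD to ndhH, at psaC with 1.71 and -1.41.

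The size of the difference varied with the brightness of the probe set. Members were ranked by their mean log2 signal over the 9 arrays and split into 3 sets of 23, dim, middle and bright, a split for description only, since the signals of different probe sets are not levels that can be set against each other. At 50 kPa against 50 kPa/NormOx the median difference was 0.72 in the dim, 0.69 in the middle and 0.40 in the bright set. The ranges were -0.87 to 1.71, 0.27 to 1.11 and -0.07 to 0.86. At 50 kPa/NormOx against 97 kPa the medians were -0.63, -0.49 and -0.33. The 3 members nearest to 0 in the first of these comparisons, rpl32, atpE and psbM, were all in the bright set, while its 3 highest members (psaC, ndhG and psaA) and its 3 lowest (rps14, petD and ndhF) were all in the dim set. Whether saturation of bright probe sets or background in dim ones took part was not tested. The 822 tested probe sets as bright as the bright set of members had a median of -0.07 in the first and 0.12 in the second of these comparisons.

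**Figure D4:**
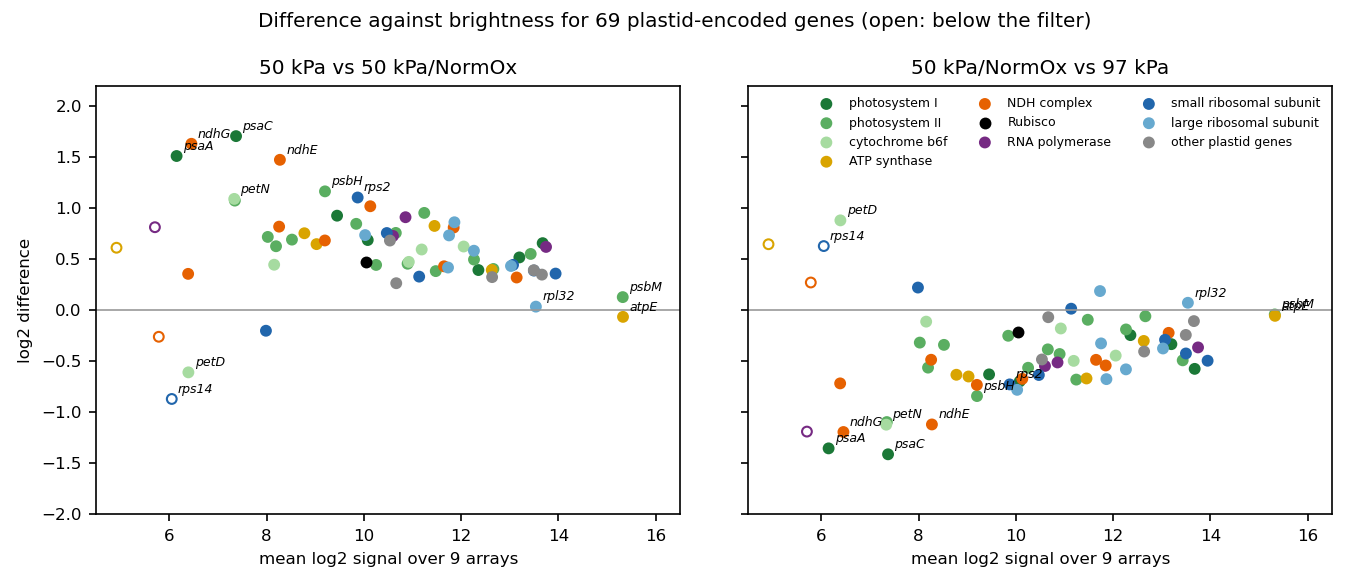
Log2 difference (vertical axes) against the mean log2 signal over 9 arrays (horizontal axes) for the 69 plastid-encoded genes, coloured by function, with 50 kPa against 50 kPa/NormOx on the left and 50 kPa/NormOx against 97 kPa on the right. Open points are the 4 genes below the filter. The differences spread from -0.87 to 1.71 in the 23 dim and from -0.07 to 0.86 in the 23 bright genes on the left.

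The 8 probe sets that name both copies of a repeated gene ran the same way, and all 8 were above 0 at 50 kPa against 50 kPa/NormOx and below 0 at 50 kPa/NormOx against 97 kPa. A probe set of rps12, a gene of the small ribosomal subunit whose parts are joined by trans-splicing, had signals of 3084, 3763 and 3857 at 50 kPa, 1840, 1744 and 1738 at 50 kPa/NormOx, and 3409, 3199 and 2382 at 97 kPa. No 50 kPa/NormOx array reached any other array. It rose by 1.00 ± 0.15 at 50 kPa against 50 kPa/NormOx (SE; limma, adjusted p = 0.00854) and fell by 0.74 ± 0.15 at 50 kPa/NormOx against 97 kPa (adjusted p = 0.0428). The other rps12 probe set had 0.50 ± 0.20 (adjusted p = 0.477) and -0.39 ± 0.20 (adjusted p = 0.447) in the same comparisons, so the 2 probe sets of this gene disagreed on the call. The large subunit gene rpl23 rose by 0.95 ± 0.17 at 50 kPa against 50 kPa/NormOx (adjusted p = 0.0428). The copies cannot be told apart on the array.

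Mitochondrial genes, which are also encoded in an organelle and labelled from the same RNA, were measured by 23 probe sets that each name 1 gene, some of them the same gene, and 16 of the probe sets were tested. Their median was 0.02 at 50 kPa against 50 kPa/NormOx, with 12 above and 11 below 0. It was -0.18 at 50 kPa/NormOx against 97 kPa and -0.21 at 50 kPa against 97 kPa. None was called by limma. At an unadjusted p under 0.05 the counts of 16 were 0 higher and 0 lower, 0 higher and 2 lower, and 1 higher and 2 lower in that order. The shares of all tested probe sets were 4.73% and 4.62%, 5.44% and 7.38%, and 4.25% and 5.09%. The first and second of these medians had no fixed sign: the first ran from -0.13 to 0.19 and the second from -0.31 to 0.05 with an array left out. The difference between the plastid and the mitochondrial median was not tested.

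Nuclear genes of photosynthesis were set beside them, though the platform annotation named only 12 of the 65 genes of the lists. Their median difference was 0.53 at 50 kPa against 50 kPa/NormOx, with 11 of 12 above 0, and none was called by limma. It was 0.34 without 50 kPa/NormOx replicate 1. At an unadjusted p under 0.05, 7 were higher and 0 lower, against 4.73% and 4.62% of all tested probe sets. The antenna gene LHCB4.1 had signals of 5100, 7302 and 4861 at 50 kPa, 2526, 5323 and 3038 at 50 kPa/NormOx, and 3250, 4465 and 4818 at 97 kPa. Its 50 kPa/NormOx arrays overlapped with both other groups, and its difference between 50 kPa and 50 kPa/NormOx was 0.72 ± 0.23 (SE; limma, adjusted p = 0.369).

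The nuclear photosynthesis genes had a median of -0.22 at 50 kPa/NormOx against 97 kPa, and, with 1 array of the 50 kPa/NormOx group left out, it was -0.49 (replicate 2) or -0.01 (replicate 1). Leaving out a 97 kPa array gave -0.38 (replicate 1) or -0.06 (replicate 3). Of the 12, 9 were below 0, and 3 were above: RCA with 0.23 and the NDH genes NDHN with 0.62 and NDHL with 0.41. The plastid-encoded NDH median was -0.61. At an unadjusted p under 0.05, 1 was higher and 0 lower, against 5.44% and 7.38% of all tested probe sets. At 50 kPa against 50 kPa/NormOx NDHN and NDHL had -0.04 and 0.15, where the plastid-encoded NDH median was 0.75. At 50 kPa against 97 kPa the median of the 12 nuclear genes was 0.33, with 11 of 12 above 0. It ran from 0.22 to 0.50 with an array left out. None passed an unadjusted p under 0.05 there, against 4.25% of all tested probe sets higher and 5.09% lower. The summed signal of the 12 genes ranged from 37032 to 53983 at 50 kPa, from 22900 to 46396 at 50 kPa/NormOx, and from 28015 to 42049 at 97 kPa. None of the 12 was listed at 0. These genes are also markers of green shoot tissue, whose part in the plastid differences was not tested.

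Array by array the plastid-encoded and nuclear photosynthesis genes did not keep the same order. The median deviation of the plastid-encoded genes from their 9-array means was 0.01, 0.32 and 0.46 at 50 kPa, -0.35, -0.19 and -0.41 at 50 kPa/NormOx, and 0.04, 0.19 and 0.02 at 97 kPa. The nuclear photosynthesis genes had -0.00, 0.66 and 0.20 at 50 kPa, -0.66, 0.28 and -0.36 at 50 kPa/NormOx, and -0.42, 0.01 and 0.24 at 97 kPa. Replicate 2 of 50 kPa/NormOx was thus above average for the nuclear genes and below average for the plastid-encoded ones. The groups of nuclear genes overlapped in every pairing, and the plastid-encoded medians at 50 kPa/NormOx were below those of all 6 other arrays.

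**Figure D5:**
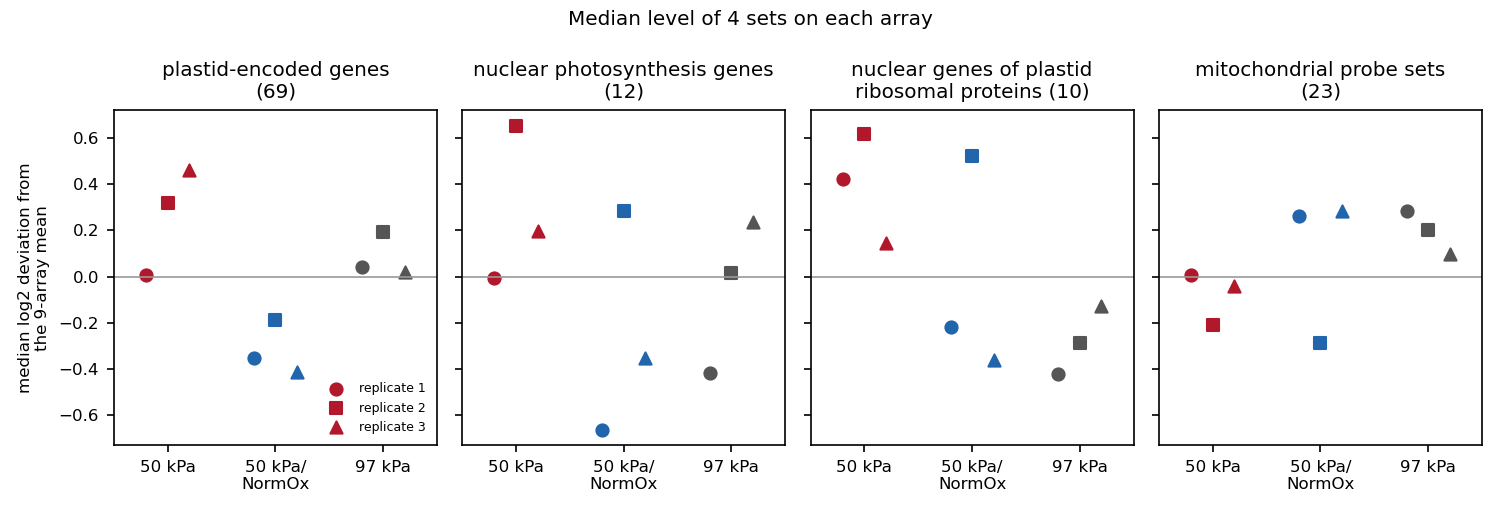
Median log2 deviation from the mean of each gene or probe set over 9 arrays (vertical axis) on each array of the 3 groups (horizontal axis, symbols for replicates), for 69 plastid-encoded, 12 nuclear photosynthesis, 10 nuclear plastid ribosomal genes and 23 mitochondrial probe sets. The 3 arrays of 50 kPa/NormOx lie between -0.41 and -0.19 in the first panel, below the 6 others, and replicate 2 of that group lies at 0.28 for the nuclear photosynthesis and 0.52 for the nuclear plastid ribosomal genes.

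The plastid ribosome is built from products of both genomes, and its nuclear and plastid genes could be set side by side. The annotation named 10 of 34 nuclear genes of plastid ribosomal proteins. All 10 were above 0 at 50 kPa against 97 kPa with a median of 0.63, and the 15 plastid-encoded members had 0.11. The probe sets of rps12, rpl2, rpl23 and rps7, which name both copies of a repeated gene, are not among these 15. At 50 kPa/NormOx against 97 kPa the median of the nuclear genes was 0.30 (9 of 10 above 0), and that of the plastid-encoded genes was -0.38, with 10 of 15 below 0. Without 50 kPa/NormOx replicate 2 these medians were 0.06 and -0.42. At 50 kPa against 50 kPa/NormOx both sets were higher. The median was 0.41 for the nuclear genes (10 of 10 above 0) and 0.43 for the plastid-encoded genes (13 of 15 above 0). In the comparison of 50 kPa with 97 kPa, the plastid-encoded median of 0.11 was 0.01 without 50 kPa replicate 3 and 0.02 without 97 kPa replicate 3.

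No nuclear gene of the plastid ribosome was called by limma. At an unadjusted p under 0.05 there were 8 of 10 higher at 50 kPa against 97 kPa, 1 higher at 50 kPa/NormOx against 97 kPa and 3 higher at 50 kPa against 50 kPa/NormOx, and 0 lower in each. Of all tested probe sets, 4.25%, 5.44% and 4.73% were higher in these comparisons, and 5.09%, 7.38% and 4.62% lower. The gene PRPL5, of the large subunit, had signals of 2256, 2843 and 1783 at 50 kPa, 1442, 2468 and 1313 at 50 kPa/NormOx, and 1140, 1163 and 1292 at 97 kPa. Neither 50 kPa nor 50 kPa/NormOx overlapped with 97 kPa, and the difference of 50 kPa from 97 kPa was 0.91 ± 0.21 (SE; limma, adjusted p = 0.163).

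Of the nuclear genes that act on plastid RNA, 2 of 16 were named, CP29B, an RNA-binding protein of the chloroplast, and CRP1, a processing and translation factor. Their differences at 50 kPa against 50 kPa/NormOx were 0.22 and -0.12, and neither passed. The phage-type polymerase gene RPOTMP, the 1 of 3 named, was below the filter. The annotation named none of the listed sigma factors or of the listed proteins that associate with the plastid polymerase. The chlorophyll synthesis gene PORB, the 1 of 13 named, had differences of 0.96 ± 0.26 at 50 kPa against 97 kPa (SE; limma, adjusted p = 0.272) and 0.74 ± 0.26 at 50 kPa against 50 kPa/NormOx (adjusted p = 0.406).

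The tissue could be checked only in part, since 1 of 12 root markers was named. EXPA7, an expansin of root hairs, had signals of 384, 206 and 330 at 50 kPa, 201, 334 and 466 at 50 kPa/NormOx, and 266, 293 and 336 at 97 kPa, and the groups overlapped. Of 6 shoot markers outside photosynthesis 4 were named, and FAMA, SPCH and MUTE, which act in the stomatal lineage, were below the filter. STOMAGEN, a signal made in leaf mesophyll, had 903, 837 and 493 at 50 kPa, 564, 938 and 283 at 50 kPa/NormOx, and 246, 363 and 319 at 97 kPa. All 50 kPa arrays exceeded the 97 kPa arrays, with a difference of 1.24 ± 0.34 (SE; limma, adjusted p = 0.272), and it differed by 0.44 ± 0.34 between 50 kPa and 50 kPa/NormOx (adjusted p = 0.729). The summed signal of the 4 shoot markers ranged from 614 to 1007 at 50 kPa, from 332 to 1202 at 50 kPa/NormOx and from 281 to 423 at 97 kPa. Their part in the plastid differences was not tested.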

How the data were processed

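Root RNA was measured on 9 ATH1 arrays, 3 per group, after poly(A)-primed labelling. The authors deposited linear MAS5 signal intensity made with Affymetrix Expression Console, scaled to the same trimmed mean on each array, without detection calls; the sources used here name no version. Of 22810 probe sets, 64 controls and the 6823 with the lowest mean log2 signal (30%) were left out, which put the filter floor at a signal of 66.7. The remaining 15923, organelle probe sets included, were tested on log2 intensity with limma 3.58.1 in R 4.3.3, with an intensity trend and all 9 arrays, and p-values were adjusted by Benjamini-Hochberg over all of them. The fit was also run on simulated data with independent noise and no array effects. That run does not cover an array that departs from its group, and no conclusion is drawn from it. Precision is limited by 3 arrays per group. The platform annotation named 1 gene for 13513 probe sets, several for 503 and none for 8730; 13436 IDs matched the TAIR10.1 gene table. Groups came from the sample titles.

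The members and gene lists were chosen with earlier results of these data known. The rule for naming took the members called in any comparison and, in each function, the member with the smallest p and with the largest difference. It also took the 3 highest and 3 lowest members of each comparison, and psbA, psaA, rbcL, ndhF, rpoB and accD. From each nuclear list it took the 2 genes with the smallest p. Not all of these genes are shown: some members, such as matK, and many of the nuclear genes are left out. Further genes were named after their values were seen. Some genes are not reported here. Alternatives covered the filter, normalization, an offset, the intensity trend, array weights, the arrays fitted, thresholds, a replicate block and each array left out.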

Additional observations from a re-analysis of the deposited data

Results flagged for a closer look

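Hybridization control RNAs, which are added to each sample after labelling and are not part of the plant RNA, gave a signal outside the measurement that differed between groups. Over 18 such probe sets the mean signal averaged 18445 at 50 kPa/NormOx, with 22186, 17551 and 15597 on its arrays, against 15156, 14260 and 15143 on the 97 kPa arrays. Every 50 kPa/NormOx array was above every 97 kPa array. The 50 kPa arrays, with 13824, 12951 and 17104, overlapped with both. The plastid share of the summed signal was 1.54, 1.59 and 1.38% at 50 kPa/NormOx and 1.80, 1.99 and 1.81% at 97 kPa. Every 50 kPa/NormOx array was thus below every 97 kPa array in this share. The 50 kPa arrays had shares of 1.71, 2.03 and 2.23%. Their replicate 3 had both the highest control signal and the highest share of that group. The part of the control signals in the plastid differences was not tested. For GAPDH, signal at the 3′ end over that at the 5′ end ranged from 4.40 to 5.11 at 50 kPa, from 4.51 to 5.57 at 50 kPa/NormOx and from 5.39 to 6.39 at 97 kPa. The 50 kPa arrays lay below the 97 kPa arrays without overlap, and 50 kPa/NormOx overlapped with both. The same ratio for actin was far higher, from 47.5 to 82.7 over the 9 arrays. For actin and for ubiquitin the ratios overlapped in every pairing of the groups.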

How the results depend on the processing

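The median member difference kept its sign with each array left out, from 0.04 to 0.30 at 50 kPa against 97 kPa, -0.51 to -0.39 at 50 kPa/NormOx against 97 kPa and 0.44 to 0.71 at 50 kPa against 50 kPa/NormOx. Calls of members at 50 kPa against 50 kPa/NormOx numbered 4 in the fit reported, 0 without the intensity trend, 2 with only the 6 arrays compared, 7 with a replicate block, 8 at an adjusted p under 0.10, and 0 to 13 with an array left out. At 50 kPa/NormOx against 97 kPa the calls, 0 in the fit reported, were 2 with the lowest 50% left out, 1 after quantile normalization, 1 with 32 added to the signal, 4 with array weights, 2 with only the 6 arrays compared, 1 with a replicate block, 7 at an adjusted p under 0.10, 4 at an unadjusted p under 0.01 with a 2-fold change, 1 with the repeated genes kept, and 0 to 6 with an array left out, all lower. The cause of these changes was not tested. Replicate numbers did not pair the arrays, since the correlations of same-numbered deviations ran from -0.05 to 0.12, so the replicate block is given here only. The numbers came from the titles, and another label gives the second 50 kPa array the number 3, so the correlations and the block rest on an uncertain numbering. At 50 kPa against 97 kPa 0 members were called in every setting. Arrays hold no depth; 4 members too dim to test set the limit of low signal.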
